A study of Mus musculus with 12 samples.

Results

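The 10 genes described here encode the NF-kB subunits and their inhibitors. The 5 subunits were *Nfkb1*, *Nfkb2*, *Rel*, *Rela* and *Relb*, and the 5 inhibitors were *Nfkbia*, *Nfkbib*, *Nfkbie*, *Nfkbiz* and *Tnfaip3*. They were chosen by symbol from the 53801 genes of the deposited tables, and each symbol stood on 1 identifier. All 10 passed the filter on low counts and were among the 15306 genes tested. The data were RNA sequencing of hearts from 12 C57BL/6N mice, with 4 hearts after sham surgery, 4 hearts from day 1 after acute myocardial infarction (AMI) and 4 hearts from day 7 after AMI. AMI was made by tying off the left coronary artery under isoflurane, without reperfusion, and the study's surgeries used male mice aged 10 to 14 weeks. All mice used here were of the same strain without a transgene or deletion named in the labels, and the sources used here do not give the time of harvest after sham surgery. The comparisons asked how expression differed early after AMI, later after AMI, and between these stages.

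NF-kB proteins bind DNA as pairs of subunits. In resting cells the IkB proteins hold these pairs in the cytoplasm. After signals such as IL-1, TNF or Toll-like receptor ligands, the IkB kinase marks IkB for destruction and the pair enters the nucleus, where it induces cytokines, chemokines and adhesion molecules. *Rela* encodes p65 and *Nfkb1* encodes p105, the precursor of p50, and both act in the canonical branch. *Nfkb2*, which encodes p100, the precursor of p52, and *Relb* act in the noncanonical branch. *Rel* encodes c-Rel, which is abundant in lymphoid and myeloid cells. *Nfkbia*, *Nfkbib* and *Nfkbie* encode the cytoplasmic inhibitors IkB alpha, beta and epsilon. *Nfkbiz* encodes the nuclear protein IkB zeta, which can also act as a coactivator, and *Tnfaip3* encodes A20, an enzyme that edits ubiquitin chains and limits signaling. Several of these genes, *Nfkbia* and *Tnfaip3* among them, are themselves NF-kB targets in textbook descriptions.

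The promoters of the members are shown because the members include such self-regulated genes. RefSeq promoter windows of GRCm38.p6, each 300 bases long from 250 bases before to 50 bases after a start, were found for 7 of the 10 members, and *Nfkb1*, *Relb* and *Nfkbiz* had no entry in the table. Each window was searched on both strands for the NF-kB consensus, a motif of 10 bases, and overlapping matches were joined into 1 site. A site was found for 5 of these 7 members, with 4 sites for *Nfkb2*, 2 for *Tnfaip3* and 1 each for *Nfkbia*, *Nfkbie* and *Rel*. Of all 32817 windows in the table, 8.46% held a match and 1.22% held 2 or more. These shares count matches within single windows without joining them, whereas the sites were joined and summed over the windows of a gene. The numbers of sites can therefore not be set against the 1.22%. Counted as windows, 7 of the 10 windows of the members, some of them overlapping, held a match. The windows of *Rela* and *Nfkbib* held no match, which says nothing about binding. The stretches below run 5′ to 3′ on the strand of the gene, and capitals mark the letters that matched, which describe the sequence and do not show a bound site.
*Nfkbia*, chr12:55492647-55492696, minus strand: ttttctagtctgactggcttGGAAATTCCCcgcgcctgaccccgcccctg
*Nfkb2*, chr19:46304678-46304755, plus strand: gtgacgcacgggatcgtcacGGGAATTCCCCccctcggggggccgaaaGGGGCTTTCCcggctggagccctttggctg
*Nfkb2*, chr19:46305685-46305734, plus strand: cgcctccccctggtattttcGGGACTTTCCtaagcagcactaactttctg
*Nfkb2*, chr19:46305445-46305488, plus strand: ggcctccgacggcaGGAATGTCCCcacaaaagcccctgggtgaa
*Tnfaip3*, chr10:19015393-19015442, minus strand: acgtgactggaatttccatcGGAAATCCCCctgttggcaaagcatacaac
*Tnfaip3*, chr10:19015506-19015555, minus strand: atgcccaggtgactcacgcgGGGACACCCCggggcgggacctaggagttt
*Nfkbie*, chr17:45555574-45555623, plus strand: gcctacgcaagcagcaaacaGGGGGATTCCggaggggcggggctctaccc
*Rel*, chr11:23771031-23771081, minus strand: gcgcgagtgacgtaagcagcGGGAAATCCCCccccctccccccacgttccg

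The libraries held between 23204551 and 32166517 counts. Counts were scaled with edgeR's TMM factors and are given as TMM-normalized CPM, which sets libraries of unequal depth on a common scale. A floor of 3 counts lay between 0.0895 and 0.156 CPM and covers counting error only, and every member was above it in every heart. The cardiomyocyte markers, *Myh6* and *Tnnt2* among them, summed to 71378 to 85260 CPM in sham hearts, 46023 to 57193 CPM on day 1 and 39629 to 45703 CPM on day 7. Sham 2 stood apart in its erythroid transcripts, with 4450 CPM against at most 1178 CPM in the other sham hearts, and leaving it out gave the same counts of called members in each comparison. The 3 groups were fitted together in edgeR, and a gene was called where its quasi-likelihood test gave a Benjamini-Hochberg FDR below 0.05 over the 15306 genes. All FDRs given here come from this test unless another is named. Fold changes (FCs) are log2 values, with standard errors implied by the test. The p-values weigh a difference between groups against the spread between these hearts. That spread was estimated over all 3 groups and moderated across genes, so the third group also enters a comparison. Both AMI groups were compared with the same sham hearts.

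On day 1 after AMI, 6 of the 10 members were higher than in sham hearts and 4 were not called. The higher members were the inhibitors *Nfkbie*, *Nfkbiz* and *Tnfaip3* and the subunits *Nfkb2*, *Relb* and *Rela*. Over all genes tested, 22.0% were called higher on day 1 and 19.9% were called lower. No member was called lower by edgeR, none had an unadjusted p under 0.05 in that direction, and DESeq2 called 0 lower. On day 7 after AMI, 7 members were higher than sham, 1 was lower, and 2 were not called, beside 30.9% of all genes called higher and 28.4% called lower. *Nfkb1* was the additional member called higher on day 7, and *Nfkbib* was the member called lower. The rule of at least a 2-fold change was met by *Nfkbie* and *Nfkbiz* alone, 2 members on each day, beside 7.79% of all genes called higher by that rule on day 1 and 15.3% on day 7. The share of all genes called lower by it was 2.98% on day 1 and 5.88% on day 7. The median log2 FC of the members was 0.48 on day 1 and 0.45 on day 7, and the median of all genes was -0.01 and 0.03.

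**Figure D1:**
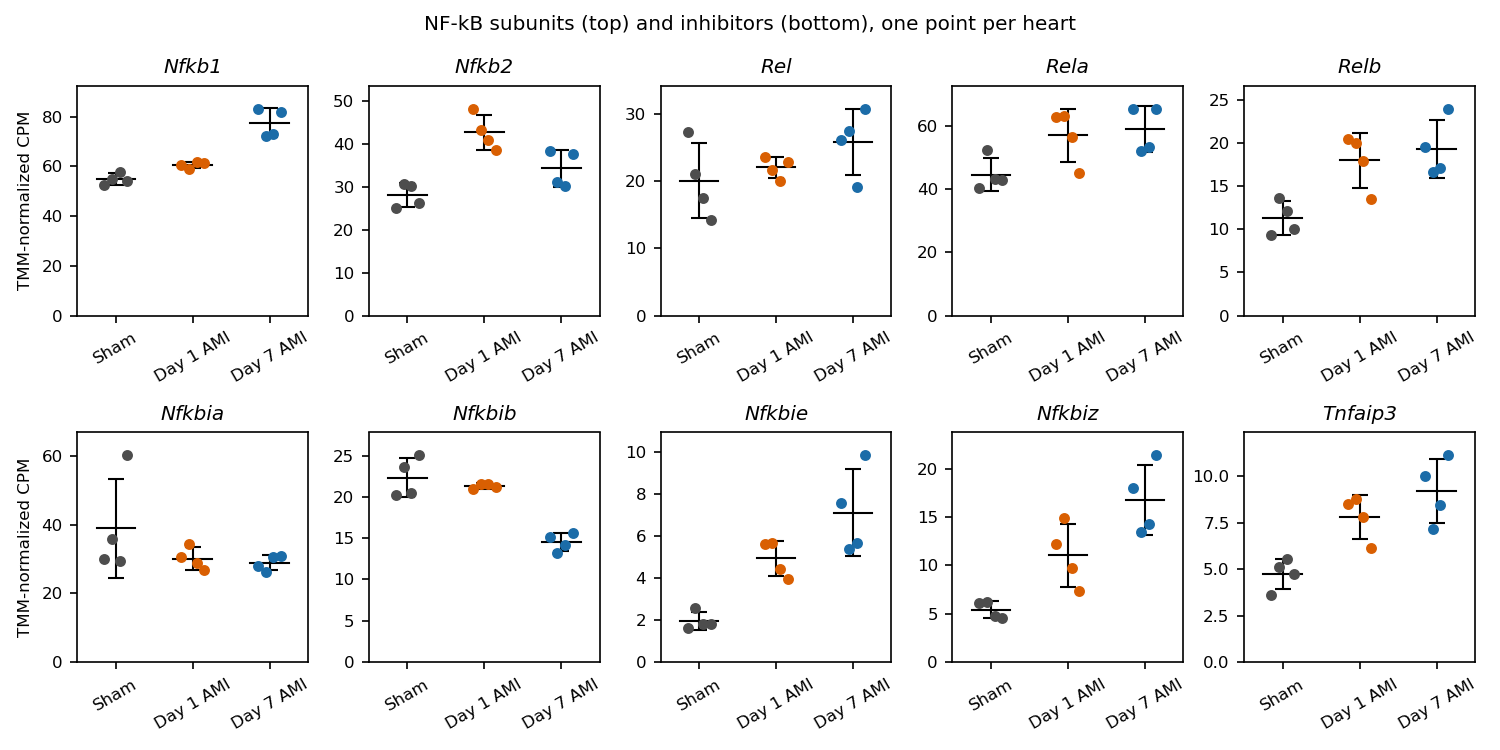
Levels of the 5 subunits (top) and 5 inhibitors (bottom) in TMM-normalized CPM, with 1 point per heart in each of the 3 groups and with the mean and SD of 4 hearts as bars. *Nfkbie* ran from 1.62 to 2.59 CPM in sham hearts and from 5.37 to 9.83 CPM on day 7, and *Nfkbia* had a single sham heart at 60.1 CPM.

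**Figure D2:**
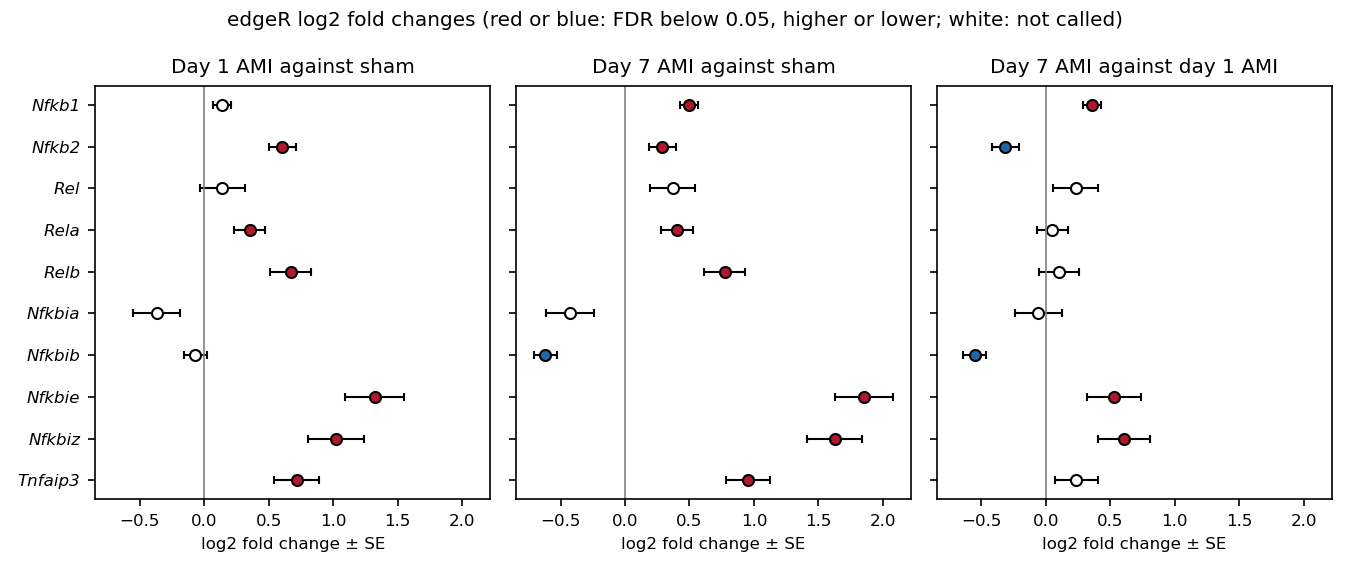
Log2 FC of each member with its SE in the 3 comparisons, as fitted by edgeR on 4 hearts per group. Red and blue points had an FDR below 0.05, higher or lower, and white points were not called. *Nfkbie* and *Nfkbiz* lie farthest to the right against sham, and *Nfkbib* lies farthest to the left on day 7.

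Among the inhibitors, *Nfkbie* (ENSMUSG00000023947; chr17:45555703-45563169 in GRCm38) had the largest log2 FC of the members against sham on both days. Its levels were 1.62, 2.59, 1.79 and 1.82 CPM in sham hearts 1 to 4, 5.62, 5.67, 4.45 and 3.97 CPM in day 1 AMI hearts, and 7.58, 5.37, 5.64 and 9.83 CPM in day 7 AMI hearts. Every AMI heart was above every sham heart, whereas the AMI groups overlapped. The log2 FC was 1.32 ± 0.228 (SE) on day 1 (FDR = 0.000494) and 1.85 ± 0.227 on day 7 (FDR = 9.29e-06). The difference between day 7 and day 1 was 0.53 ± 0.208 (FDR = 0.0487), and this call was lost in 8 of the 12 fits that left out 1 heart, with an FDR of up to 0.195. These hearts were Sham 1, 3 and 4, replicates 1, 3 and 4 of day 1, and replicates 1 and 4 of day 7. It was also lost with RLE size factors (FDR = 0.057), without the filter (0.0582), with only the groups compared (0.056), and with DESeq2 (0.0559).

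*Nfkbiz* (ENSMUSG00000035356; chr16:55811375-55838899), which encodes the nuclear IkB zeta, was the other member past a 2-fold change. It stood at 6.10, 6.24, 4.80 and 4.59 CPM in sham, 12.2, 14.9, 9.72 and 7.35 CPM on day 1, and 18.0, 13.4, 14.3 and 21.4 CPM on day 7. All day 1 and day 7 AMI hearts were above all sham hearts, and the highest day 1 heart was above the lowest day 7 hearts. Its log2 FC over sham was 1.02 ± 0.214 on day 1 (FDR = 0.00188) and 1.63 ± 0.214 on day 7 (FDR = 1.75e-05). Between day 7 and day 1 it was higher by 0.60 ± 0.202 (FDR = 0.0237), and this call was lost on leaving out replicate 3 or 4 of day 1 or replicate 1 or 4 of day 7, with an FDR of up to 0.0869.

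*Tnfaip3* (ENSMUSG00000019850; chr10:19000910-19015657), which encodes A20 and had 2 promoter sites, rose on both days by less than 2-fold. The sham hearts held 3.60, 5.09, 5.53 and 4.73 CPM, the day 1 hearts 8.49, 8.80, 7.79 and 6.15 CPM, and the day 7 hearts 10.02, 7.19, 8.45 and 11.1 CPM. Both AMI groups lay above the sham group without overlap and overlapped each other. Against sham, its log2 FC was 0.72 ± 0.174 on day 1 (FDR = 0.0048) and 0.95 ± 0.174 on day 7 (FDR = 0.000289). Its difference between day 7 and day 1, 0.24 ± 0.167, was not called (FDR = 0.258).

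*Nfkbia* (ENSMUSG00000021025; chr12:55489410-55492647), which encodes IkB alpha and had a promoter site just before its start, was not called in any comparison. It stood at 30.1, 35.9, 29.5 and 60.1 CPM in sham, 30.5, 34.4, 29.0 and 26.6 CPM on day 1, and 28.0, 26.2, 30.6 and 31.0 CPM on day 7. Sham 4 was far above the other hearts, and the remaining 3 sham hearts overlapped both AMI groups. Fitted log2 FCs were -0.37 ± 0.184 on day 1 (FDR = 0.121) and -0.43 ± 0.184 on day 7 (FDR = 0.0586). Without Sham 4 these values were -0.08 (FDR = 0.588) and -0.14 (FDR = 0.279). Without Sham 1 or Sham 3, the day 7 value was -0.54 and passed the threshold. With all hearts, it was called lower with DESeq2 (-0.45, FDR = 0.0407), RLE size factors (-0.45, FDR = 0.0487) and no filter (-0.43, FDR = 0.0385). With library totals it was -0.03 (FDR = 0.907), and limma on log2(TPM + 1) gave 0.27 (FDR = 0.254). Its call and sign thus depended on the setting.

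*Nfkbib* (ENSMUSG00000030595; chr7:28758251-28767512), which encodes IkB beta, was the member that fell. Its levels were 20.2, 23.6, 20.5 and 25.0 CPM in sham, 20.9, 21.6, 21.5 and 21.2 CPM on day 1, and 15.1, 13.2, 14.2 and 15.7 CPM on day 7. The day 1 hearts lay within the sham range, and all 4 day 7 hearts were below every other heart. Its log2 FC against sham was -0.07 ± 0.0877 on day 1 (FDR = 0.556) and -0.62 ± 0.0889 on day 7 (FDR = 3.78e-05), and from day 1 to day 7 it fell by 0.55 ± 0.0882 (FDR = 0.000193). The day 7 fall was relative to other genes. On the TPM scale, the authors' length-corrected abundance used here without TMM, the difference from sham was -0.07 (FDR = 0.584, limma on log2(TPM + 1)), and it was -0.55 after the shift of all genes on that scale was subtracted. That shift was measured against TMM, so the subtraction largely returns to the TMM scale and is no separate check. Exons of *Sirt2* and *Ccer2* on the opposite strand overlap up to 14.48% of the exon bases of *Nfkbib*, and reads from both strands cannot be told apart because the counted strand was not given. *Sirt2* itself fell by 0.41 on day 1 (FDR = 0.000704) and 0.44 on day 7 (FDR = 0.000162), at a mean of 81.8 CPM.

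Among the subunits, *Nfkb2* (ENSMUSG00000025225; chr19:46304320-46312385), the p100 and p52 gene, with 4 promoter sites, was highest on day 1. The sham hearts held 25.1, 30.6, 30.1 and 26.3 CPM, the day 1 hearts 48.1, 43.2, 40.8 and 38.6 CPM, and the day 7 hearts 38.4, 31.1, 30.1 and 37.5 CPM. Day 1 stood apart from both other groups, whereas sham and day 7 overlapped at 30.1 to 30.6 CPM. In log2 FC against sham, it stood at 0.61 ± 0.106 on day 1 (FDR = 0.000545) and 0.29 ± 0.106 on day 7 (FDR = 0.0285), and from day 1 to day 7 it fell by 0.31 ± 0.104 (FDR = 0.0232). The day 7 call against sham was lost on leaving out Sham 1, Sham 4, or replicate 1 or 4 of day 7, with an FDR of up to 0.0898. Without replicate 1 of day 1, or replicate 2 or 3 of day 7, the fall from day 1 to day 7 was not called, nor was it with library totals, at -0.18, which is -0.31 relative to the shift of all genes, or on log2(TPM + 1), at -0.08 (FDR = 0.622), which is -0.28 relative to the shift on that scale. Both shifts were measured against TMM, so the values relative to them largely restore the TMM scale by construction. *Psd*, on the opposite strand, and a second annotation overlap up to 11.58% of the exon bases of *Nfkb2*, and *Psd*, at a mean of 2.35 CPM, was not called in any comparison.

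*Relb* (ENSMUSG00000002983; chr7:19606217-19629438), the partner of p52 in the noncanonical branch, was higher on both days. It stood at 9.28, 13.7, 12.1 and 10.1 CPM in sham, 20.5, 20.0, 17.9 and 13.6 CPM on day 1, and 19.6, 16.6, 17.2 and 23.9 CPM on day 7. All day 7 hearts were above all sham hearts, and replicate 4 of day 1 lay just below Sham 2. As log2 FC, the differences were 0.67 ± 0.161 on day 1 (FDR = 0.00448) and 0.77 ± 0.161 on day 7 (FDR = 0.000833). The difference between day 7 and day 1 was 0.10 ± 0.156 and was not called (FDR = 0.606).

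*Rela* (ENSMUSG00000024927; chr19:5637483-5648130), the p65 gene, was called higher on both days. Its levels were 40.3, 52.3, 43.1 and 42.8 CPM in sham, 62.9, 63.3, 56.5 and 45.2 CPM on day 1, and 65.4, 52.1, 53.2 and 65.2 CPM on day 7. In each AMI group a single heart lay below Sham 2, and the other AMI hearts were above all sham hearts. The log2 FC was 0.35 ± 0.122 on day 1 (FDR = 0.032) and 0.40 ± 0.122 on day 7 (FDR = 0.0108), and 0.05 ± 0.121 between them (FDR = 0.756). The day 1 call was lost in 6 of the 12 fits without 1 heart, namely Sham 1, 3 or 4 or day 1 replicate 1, 2 or 3, with an FDR of up to 0.0941.

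*Nfkb1* (ENSMUSG00000028163; chr3:135584655-135691547), the p105 and p50 gene, was called higher on day 7 alone. The sham hearts held 52.5, 54.9, 57.9 and 54.2 CPM, the day 1 hearts 60.4, 58.8, 61.6 and 61.2 CPM, and the day 7 hearts 83.1, 72.2, 73.0 and 82.0 CPM. The 3 groups did not overlap, and the step from sham to day 1 was small beside the step to day 7. The log2 FC was 0.14 ± 0.0695 on day 1 (FDR = 0.121), 0.50 ± 0.0695 on day 7 (FDR = 2.91e-05), and 0.36 ± 0.0691 between day 7 and day 1 (FDR = 0.000767). *Nfkb1* and *Nfkb2* were thus ordered differently over the groups. The ratio of *Nfkb1* to *Nfkb2* counts within a heart, which no library scaling can alter, was 1.97 ± 0.138 (SD, n = 4) in sham hearts, 1.43 ± 0.147 on day 1, and 2.27 ± 0.121 on day 7. The ratio ran from 1.79 to 2.09 in sham, from 1.26 to 1.58 on day 1, and from 2.17 to 2.42 on day 7, without overlap, and it was chosen after the values were seen and is given without a test.

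*Rel* (ENSMUSG00000020275; chr11:23736847-23770970), the c-Rel gene, was not called in any comparison. It stood at 27.2, 21.1, 17.5 and 14.2 CPM in sham, 23.5, 21.7, 20.0 and 22.9 CPM on day 1, and 26.1, 27.4, 19.1 and 30.7 CPM on day 7. Sham 1 was at the level of the day 7 hearts, and the groups overlapped. The log2 FC was 0.14 ± 0.174 on day 1 (FDR = 0.55) and 0.37 ± 0.174 on day 7 (FDR = 0.0817). Without Sham 1 the day 7 value was 0.55 (FDR = 0.0098), and without replicate 3 of day 7 it was 0.49 (FDR = 0.0229).

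Between day 7 and day 1, 3 members were called higher (*Nfkbiz*, *Nfkbie* and *Nfkb1*), 2 were called lower (*Nfkbib* and *Nfkb2*), and 5 were not called, beside 24.2% of all genes called higher and 22.8% called lower. The largest difference of a member between these days was 0.60, under a 2-fold change, a rule by which 8.55% of all genes were called higher and 2.69% lower. Groups did not overlap, in the higher direction, for 5 members on day 1 against sham and for 5 on day 7 against sham, beside 19.6% and 28.3% of all genes. In the lower direction there was 1 such member on day 7, *Nfkbib*, beside 24.7% of all genes, and 17.1% of all genes lay below sham without overlap on day 1. Between day 7 and day 1 there was 1 higher and 2 lower, beside 23.5% and 20.9% of all genes.

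The scaling of the libraries bears on the small differences. The TMM factors were 0.781 to 0.917 in sham, 1.01 to 1.06 on day 1, and 1.10 to 1.17 on day 7. With library totals alone, the median of all genes moved up by 0.27 on day 1, 0.40 on day 7 and 0.13 between day 7 and day 1, and genes called higher and lower on day 1 numbered 6289 and 1061, against 3360 and 3043 with TMM. The corresponding numbers on day 7 were 8237 and 1659 against 4728 and 4353, and between the AMI days 4772 and 2168 against 3701 and 3496. On log2(TPM + 1) the shifts were 0.28, 0.49 and 0.20. *Nfkb1* on day 1 was called with library totals, at 0.41, which is 0.14 after subtraction of the shift. *Rel* on day 7 was called with library totals at 0.78, which is 0.38 after subtraction. *Nfkbib* on day 1 was 0.20 with library totals and -0.07 after subtraction. Each shift was measured against the TMM fit, so subtracting it largely restores the TMM value by construction. The values after subtraction are therefore no separate check of TMM. Of the 19 calls of members over the 3 comparisons, 13 held under every alternative and with each heart left out in turn. These were *Nfkbie*, *Nfkbiz*, *Tnfaip3*, *Relb* and *Nfkb2* on day 1, *Nfkbie*, *Nfkbiz*, *Tnfaip3*, *Relb*, *Rela* and *Nfkb1* on day 7, and *Nfkb1* and *Nfkbib* between the AMI days.

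Levels of different members were compared in TPM, which allows for transcript length. In sham hearts *Nfkbia* was highest, at 48.9 ± 18.5 TPM (SD, n = 4), followed by *Nfkbib* at 24.8 ± 3.39, *Rela* at 19.8 ± 3.56, *Nfkb1* at 19.7 ± 2.07 and *Nfkb2* at 10.8 ± 1.76 TPM. *Nfkbib*, *Rela* and *Nfkb1* overlapped as neighbors. *Relb* at 6.71 ± 1.71 TPM overlapped *Nfkb2*, and *Rel* at 2.99 ± 0.740 TPM overlapped *Nfkbiz* at 1.81 ± 0.234 TPM. *Nfkbie* was lowest at 0.990 ± 0.278 TPM and overlapped *Tnfaip3* at 1.23 ± 0.277 TPM. On day 1 *Nfkbia* at 42.1 ± 5.69 TPM overlapped *Rela* at 31.4 ± 4.09 TPM, which overlapped *Nfkbib* at 29.5 ± 0.979 TPM. *Nfkb1* at 27.5 ± 0.839, *Nfkb2* at 20.5 ± 1.67 and *Relb* at 12.9 ± 1.84 TPM did not overlap one another. Below them on day 1, *Nfkbiz* at 4.49 ± 1.23 TPM overlapped *Rel* at 4.13 ± 0.351 TPM, *Nfkbie* stood at 3.08 ± 0.498 TPM, and the lowest member was *Tnfaip3* at 2.52 ± 0.375 TPM. On day 7 *Nfkbia* at 57.1 ± 10.2 TPM overlapped *Nfkb1* at 44.8 ± 4.50 TPM, which overlapped *Rela* at 38.4 ± 5.82 TPM. *Nfkbib* at 23.6 ± 2.46, *Nfkb2* at 19.4 ± 2.84 and *Relb* at 15.8 ± 3.02 TPM followed, each overlapping the next. *Nfkbiz* at 8.09 ± 1.97, *Rel* at 5.72 ± 1.23, *Nfkbie* at 5.28 ± 1.71 and *Tnfaip3* at 3.53 ± 0.901 TPM also overlapped as neighbors on day 7. Per length, *Nfkbie* and *Nfkbiz* remained below *Nfkbia*, *Rela*, *Nfkb1*, *Nfkbib*, *Nfkb2* and *Relb* in mean TPM in all 3 groups.

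The summed TPM of the 5 subunits was 60.1 ± 8.86 in sham hearts, 96.4 ± 7.17 on day 1 and 124 ± 16.9 on day 7. The summed TPM of the 5 inhibitors was 77.7 ± 20.8, 81.7 ± 7.35 and 97.6 ± 16.4. Neither sum is corrected for the shift of all genes on log2(TPM + 1), which was 0.28 on day 1 and 0.49 on day 7. Part of a rise in these sums is thus shared by genes at large. The inhibitor sum divided by the subunit sum, a ratio within a heart, was 1.22, 1.12, 0.982 and 1.95 in sham hearts, 0.793, 0.903, 0.867 and 0.827 on day 1, and 0.707, 0.735, 0.855 and 0.850 on day 7. All sham hearts were above all AMI hearts in this ratio, and the AMI groups overlapped. Within the inhibitor sum, *Nfkbia* made up 61.7% ± 6.76 in sham, 51.4% ± 2.62 on day 1 and 58.5% ± 2.80 on day 7. Sham 4, the heart with the ratio of 1.95, held 75.45 TPM of *Nfkbia*. *Nfkbie* made up 1.32% ± 0.393 in sham, 3.76% ± 0.362 on day 1 and 5.32% ± 0.906 on day 7. *Nfkbib* made up 32.9% ± 5.40, 36.3% ± 3.91 and 24.4% ± 1.88. The inhibitor sum and its ratio thus mostly reflect *Nfkbia* and *Nfkbib*, whereas *Nfkbie*, *Nfkbiz* and *Tnfaip3* were called higher than sham on both days. Within the subunit sum, *Nfkb2* made up 18.0% ± 0.857, 21.2% ± 0.634 and 15.6% ± 0.363. These shares are descriptions and were not tested.

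**Figure D3:**
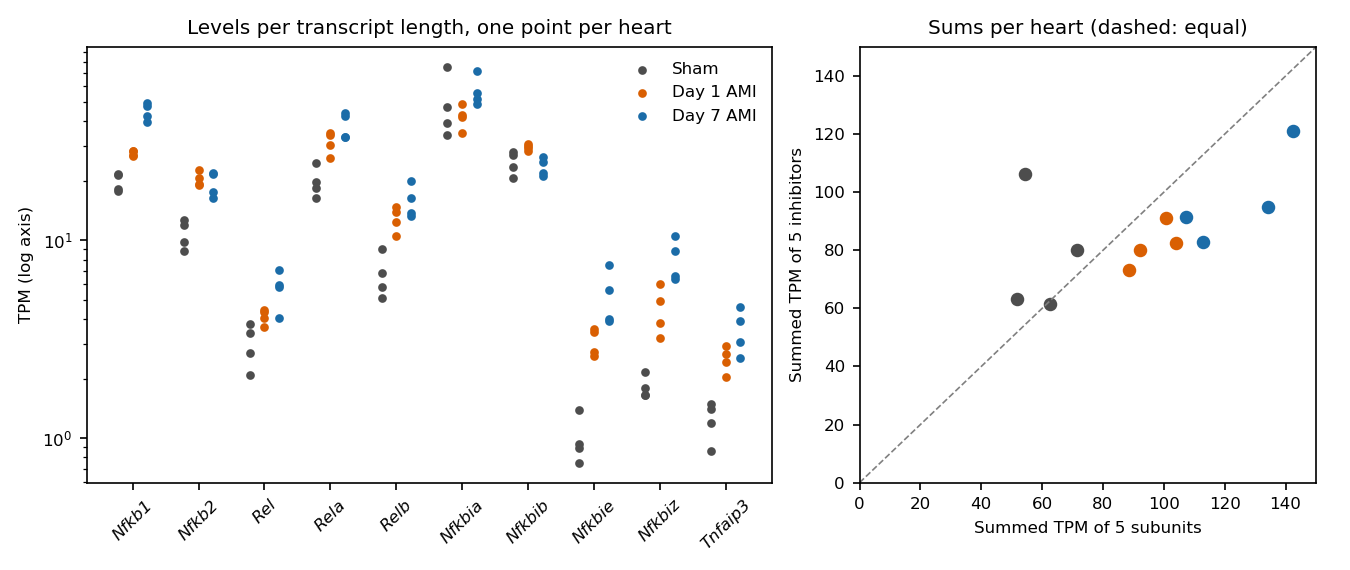
Left, TPM of each member on a log axis, with 1 point per heart. Right, summed TPM of the 5 inhibitors against that of the 5 subunits in each heart, with a dashed line where the sums are equal. The 8 AMI hearts lie below the line, and 3 of the 4 sham hearts lie above it.

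Markers of other cell types moved with the groups. The summed CPM of 8 leukocyte markers was 72.7 to 124 in sham hearts, 273 to 397 on day 1 and 269 to 449 on day 7, with 8 of 8 called higher on each day. The sum of 8 macrophage markers was 249 to 374, 472 to 670 and 703 to 1074 CPM, with 7 of 8 called higher on day 1 and 8 of 8 on day 7. Neutrophil markers, 9 in all, summed to 2.39 to 56.1 CPM in sham, 40.9 to 149 on day 1 and 7.80 to 38.9 on day 7, *Ly6g* did not pass the filter, and up to 4 of the 9 were at 0 in a sham heart. Of the 8 neutrophil markers tested, 4 were called higher on day 1 and 4 were not called. On day 7, 1 of them was called higher, 1 lower and 6 were not called. The sum of 5 fibroblast markers was 927 to 1179 CPM in sham, 1366 to 1896 on day 1 and 5372 to 10296 on day 7. On day 1, 4 of these 5 were called higher and 1 lower, and on day 7 all 5 were called higher. *Dcn* had a mean of 522 CPM in sham hearts and 318 CPM on day 1. The sum of 5 endothelial markers was 717 to 790 CPM in sham, 563 to 611 on day 1 and 947 to 1036 on day 7. Of these, 3 of 5 were called lower on day 1, 3 of 5 higher on day 7, and 5 of 5 higher on day 7 than on day 1. The sum of 6 lymphocyte markers was 1.48 to 3.83, 2.05 to 4.82 and 4.10 to 8.06 CPM, with 1 called higher on day 1 and 3 on day 7. Of 9 cardiomyocyte markers, 7 were called lower on day 1 and 8 on day 7. Among the day 7 hearts, replicate 4 had the highest leukocyte sum, 449 CPM, and was highest for 7 of the 10 members. Replicate 2 of day 7 was lowest for 8, with a leukocyte sum of 296 CPM, above the 269 CPM of replicate 3. In sham, Sham 2 had the highest leukocyte sum, 124 CPM, and was highest for 5 members. Sham 1 was lowest for 7 members, with 117 CPM, above Sham 3 at 85.5 CPM and Sham 4 at 72.7 CPM. Replicate 2 of day 1 had the highest leukocyte sum of its group, 397 CPM, and was highest for 6 members. Replicate 4 of day 1 was lowest for 7 members, with a leukocyte sum of 293 CPM, above the 273 CPM of replicate 3. The part of these cells in the members' differences was not tested. In whole hearts, more cells of a type and more RNA per cell cannot be told apart.

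The genes outside the members that were nearest in pattern to each member were found over the 12 hearts, as the smallest root mean square difference of centred log2 CPM among 13424 genes with at least 1 CPM, with the 10 members left out of the search. *Nfkbiz* was nearest to *Irf8*, a transcription factor of myeloid cells, at 0.143, and to *Dennd1c* at 0.154. *Nfkbie* was nearest to *Cenpt* at 0.148 and *Rad18* at 0.161, which encode a centromere protein and a DNA repair ubiquitin ligase. *Nfkbib* was nearest to *Srp68*, a component of the signal recognition particle, at 0.0810, and *Nectin2* at 0.0815. For the subunits, *Nfkb1* was nearest to *Cdc42bpb* at 0.0716 and *Fam160b1* at 0.0725, *Nfkb2* to *Sec22b* at 0.0844 and *Nacc1* at 0.0919, *Rela* to *Atp13a1* at 0.0842 and *Tm4sf1* at 0.0865, and *Relb* to *Rhbdf2* at 0.119 and *Snhg17* at 0.128. *Tnfaip3* was nearest to *Tkt* at 0.135 and *Sept9* at 0.141. *Rel* was nearest to *Wdfy2* at 0.168, and *Nfkbia* to *Clmn* at 0.148 and *Gpr182* at 0.183. These distances depend on how much a member varies and do not rank the matches of different members. The SD of log2 CPM over the 12 hearts was 0.310 for *Rel* and 0.317 for *Nfkbia*. It was 0.752 for *Nfkbiz*, 0.845 for *Nfkbie* and 0.228 for *Nfkb1*. Among the members themselves, *Relb* and *Tnfaip3* were nearest, at 0.124. This was closer than *Tkt* was to *Tnfaip3*, whereas *Rhbdf2*, at 0.119, was closer to *Relb* than *Tnfaip3* was. *Nfkbib* and *Nfkbie* were farthest apart, at 1.02.

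The kinases and adaptors that act before NF-kB were read from a list of 28 genes, all tested. On day 1, 12 were higher and 16 were not called, and on day 7, 16 were higher, 4 were lower and 8 were not called. Over all genes tested, the shares called higher and lower were 22.0% and 19.9% on day 1 and 30.9% and 28.4% on day 7. The median log2 FC of the list was 0.26 on day 1 and 0.51 on day 7. *Ikbke*, an IkB kinase relative, rose by 1.79 on day 1 (FDR = 8.4e-05) and 2.12 on day 7 (FDR = 3.92e-06). *Traf1*, an adaptor of TNF receptors, rose by 1.48 on day 1 (FDR = 0.00053) and 2.38 on day 7 (FDR = 2.87e-06). *Tab1*, an adaptor of the kinase TAK1, fell by 0.70 on day 7 (FDR = 1.31e-05), and its relative *Tab3* fell by 0.36 (FDR = 0.0258), a call lost without Sham 1 (-0.24, FDR = 0.0924) or replicate 1, 3 or 4 of day 7. The subunits of the IkB kinase itself are given for their role, although only *Ikbkg* is named by the rule. *Ikbkb*, the catalytic subunit of the canonical branch, had a log2 FC of 0.19 on day 1 (FDR = 0.0954) and rose by 0.53 on day 7 (FDR = 0.000152). *Chuk*, the other catalytic subunit, had -0.07 and -0.21 and was not called (FDR = 0.589 and 0.063). *Ikbkg*, the scaffold subunit, had -0.12 on day 1 (FDR = 0.157) and fell by 0.35 on day 7 (FDR = 0.000555). Between day 7 and day 1, 5 kinases and adaptors were higher, 2 were lower and 21 were not called, beside 24.2% of all genes higher and 22.8% lower. *Ripk1*, a kinase of the TNF receptor complex, was 0.65 higher on day 7 than on day 1 (FDR = 0.000566).

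The ubiquitin enzymes and binding proteins around A20 were 17 genes, all tested. On day 1, 4 were higher, 1 was lower and 12 were not called, and on day 7, 4 were higher, 4 were lower and 9 were not called. The 4 higher genes of 17 were near the 22.0% of all genes on day 1 and below the 30.9% on day 7. Of all genes, 19.9% were called lower on day 1 and 28.4% on day 7. *Otulin*, a deubiquitinase of linear chains, rose by 0.81 on day 1 (FDR = 8.4e-05), and fell by 0.56 from day 1 to day 7 (FDR = 0.000633). *Zc3h12a*, which encodes the RNase Regnase-1, rose by 0.64 on day 1 (FDR = 0.025), and *Sharpin*, a linear ubiquitin ligase component, fell by 0.28 (FDR = 0.0185). The call of *Zc3h12a* was lost without Sham 3, Sham 4 or replicate 2 of day 1 (FDR of up to 0.0799), and that of *Sharpin* without Sham 4 or replicate 1 of day 1 (FDR of up to 0.0532). On day 7, *Birc3*, which encodes cIAP2, rose by 0.57 (FDR = 0.0024) and the ligase gene *Itch* by 0.26 (FDR = 0.0083). *Commd1* and *Otud7b* fell by 0.53 and 0.49 on day 7 (FDR = 0.00013 and 6e-05). Between day 7 and day 1, 1 gene of the list was higher, 4 were lower and 12 were not called, beside 24.2% of all genes higher and 22.8% lower.

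The other nuclear IkB and kB-Ras genes were 5. *Nfkbid*, a nuclear IkB, rose by 1.81 on day 1 (FDR = 0.000481) and 1.73 on day 7 (FDR = 0.00027), from a sham mean of 0.413 CPM. *Bcl3*, another nuclear IkB, rose by 1.21 (FDR = 0.00702) and 0.82 (FDR = 0.0361), the latter lost without Sham 1, 3 or 4 or replicate 1 or 4 of day 7 (FDR of up to 0.104). The kB-Ras gene *Nkiras2* fell by 0.34 on day 1 (FDR = 0.0084) and 0.51 on day 7 (FDR = 0.000212), and *Nkiras1* fell by 0.54 on day 7 (FDR = 0.00112). Over the 5 genes, 2 were higher and 1 lower on day 1, and 2 were higher and 2 lower on day 7, beside 22.0% and 19.9% of all genes on day 1 and 30.9% and 28.4% on day 7. The lower calls depended on the scaling, as they did over all genes. Over these 5 genes, the kinases and adaptors and the ubiquitin genes together, 10 were lower on day 7 with TMM and 1 with library totals. Of all 15306 genes, 4353 were lower on day 7 with TMM and 1659 with library totals.

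The target genes were 32, of which 29 were tested, and *Ccl20*, *Csf2* and *Csf3* did not pass the filter. On day 1, 22 were higher and 2 were lower, and on day 7, 18 were higher and 4 were lower, beside 22.0% and 19.9% of all genes on day 1 and 30.9% and 28.4% on day 7. The median log2 FCs of the list were 2.07 and 1.21. *Cxcl5*, a neutrophil chemokine, rose by 5.46 on day 1 (FDR = 8.16e-06). *Bcl2a1d* was called higher on day 1, at a mean of 1.63 CPM against 0.0771 CPM in sham hearts, where its counts were between 0 and 4, and reads of its near-identical gene copies may be split among them. *Sod2*, which encodes the mitochondrial superoxide dismutase, fell by 0.47 on day 1 (FDR = 0.000285) and 1.13 on day 7 (FDR = 5.93e-08), and *Tnfaip2* fell by 0.38 on day 1 (FDR = 0.0447), a call lost without Sham 3 (-0.22, FDR = 0.172) or replicate 1, 2 or 3 of day 1. The acute-phase gene *Saa3* was called at 3.95 ± 1.24 on day 7 (FDR = 0.0132), a value that rested on 1 heart: replicate 4 held 31.3 CPM and the other day 7 hearts 0.664 to 2.55 CPM, and without it the value was 1.20 (FDR = 0.247). Without Sham 2 it was 4.94. The chemokine *Ccl5* rose by 3.92 ± 0.531 (FDR = 2.29e-05). *Lcn2*, which neutrophils hold in their granules, fell by 1.53 on day 7 against sham (FDR = 0.0144). This value was -2.32 without replicate 4 of day 7 and -1.10 (FDR = 0.0667) without Sham 2, where it was not called. Between day 7 and day 1, 6 target genes were higher, 13 were lower and 10 were not called, beside 24.2% of all genes higher and 22.8% lower, and the median was -0.56. *Lcn2* fell by 5.42 between day 1 and day 7 (FDR = 2.19e-06; -6.21 without replicate 4 of day 7) and *Mmp9* by 4.30 (FDR = 1.94e-05), while *Ccl5* rose by 1.85 (FDR = 0.00275) and *Cfb*, a complement factor, by 1.58 (FDR = 0.0217). The *Cfb* value rested on replicate 4 of day 7, at 46.8 CPM beside 9.96 to 13.4 CPM in the other day 7 hearts, and was 0.80 (FDR = 0.148) without it. It also missed the threshold without replicate 1 or 3 of day 1, at 1.55 and 1.51.

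**Figure D4:**
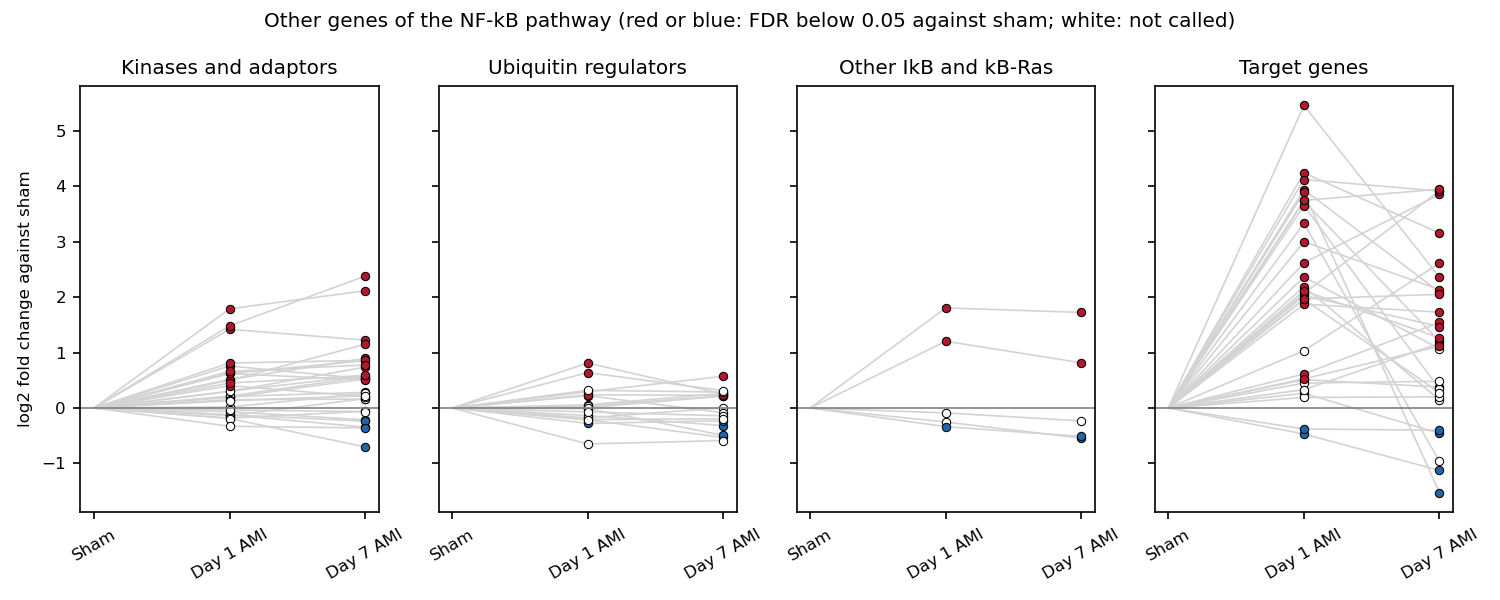
Log2 FC against sham of the other genes of the NF-kB pathway, in 4 panels by list, for day 1 AMI and day 7 AMI, with grey lines joining the values of a gene. Red and blue points had an FDR below 0.05, higher or lower, and white points were not called. Target genes spread widest, with *Cxcl5* at 5.46 on day 1, and the other lists stay between -0.70 and 2.38.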

How the data were processed

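Hearts of 12 mice were sequenced as 150-bp paired-end reads. The authors aligned trimmed reads with STAR 2.4.0j to Ensembl GRCm38 release 92, and the submitters' processing notes also name CASAVA 1.8, RSEM and mm10. The authors deposited raw counts per gene, without normalization, and deposited TPM from RSEM. The tool and strand behind the counts are not given in the sources used here. Samples were grouped by their labels.

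The test was edgeR's quasi-likelihood F test (edgeR 4.0.16, R 4.3.3). Libraries were scaled with TMM, low genes were removed with filterByExpr by group, the 3 groups shared a fit, and p-values were adjusted over 15306 genes (Benjamini-Hochberg). Log2 CPM used a prior count of 2. Depth was 23204551 to 32166517 counts. On simulated day 1 against sham data with 15306 genes, edgeR recovered 199 of 200 genes changed by a log2 FC of 1.5, with 15 false calls. The changed genes were drawn from those above a minimum mean CPM, with as many raised as lowered. This check does not cover smaller changes, such as those of most members, or a shift of many genes.

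The members and lists were chosen with earlier results of these data known. From each list, the named genes are the 2 with the largest rise and the 2 with the largest fall in each comparison, at an FDR below 0.05 and with 1 CPM or more on average in the higher group. *Chuk* and *Ikbkb* were added for their role after their values were seen. Positions are from GENCODE M21 and promoters from RefSeq. Alternatives used DESeq2 1.42.0, limma 3.58.1 on log2(TPM + 1) and log2(TPM + 0.1), DESeq2's size factors in edgeR (RLE), library totals, no filter, only the groups compared, a replicate block, and each heart left out. Leaving out hearts for the single genes named from the lists was added after the data were seen. Figures were drawn with matplotlib 3.10.9.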

Additional observations from a re-analysis of the deposited data

How the results depend on the processing

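Of 240 checks of single members under other settings, 210 kept their direction and side of the threshold, 9 gained a call, 13 lost one and 8 reversed. With 1 heart left out, the corresponding numbers of 360 were 325, 4, 25 and 6.

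With library totals alone, members called lower numbered 0 on day 7 and 1 between day 7 and day 1. Upstream and regulator genes higher and lower were 32 and 0 on day 1 (18 and 2 with TMM), 37 and 1 on day 7 (22 and 10), and 14 and 3 between the AMI days (6 and 6), and target genes lower were 1 on day 1 and 1 on day 7. Over all 15306 genes with library totals, 6289 and 1061, 8237 and 1659, and 4772 and 2168 were called higher and lower. With limma on log2 TPM, at either pseudocount, members lower were 0 and 1, upstream genes 33 and 0, 40 and 0, and 20 and 1, and target genes lower 0 and 1. Over all 13716 genes on log2(TPM + 1), those called higher and lower numbered 6015 and 707 on day 1. They numbered 8606 and 993 on day 7, and 4879 and 1273 between the AMI days. At a fold change of at least 2, members higher were 2, 2 and 0 and lower 0 on day 7 and 0 between the AMI days, upstream genes higher 5, 5 and 0 and lower 0 in each, and target genes lower 0 on day 1 and 2 on day 7, and higher 3 between the AMI days. Members lower on day 7 were 2 with RLE, DESeq2 or no filter, with *Nfkbia* added. Upstream genes lower on day 1 were 4 with RLE and 1 without the filter. With only the groups compared, target genes lower on day 1 were 1.

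Reversed values were those of members not called in the comparison. *Nfkbib* on day 1 was 0.20 with library totals and 0.25 and 0.26 on log2 TPM. *Nfkbia* on day 7 was 0.27 and 0.28 on log2 TPM, and between the AMI days 0.0695 with library totals and 0.43 and 0.43 on log2 TPM. With 1 heart left out, between the AMI days, *Nfkbia* ran from -0.12 to 0.0081, *Rela* from -0.0486 to 0.10 and *Relb* from -0.0154 to 0.17. The cause was not tested.

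With each heart left out, members higher and lower were 5 to 6 and 0 to 0 on day 1, 6 to 8 and 1 to 2 on day 7, and 1 to 3 and 1 to 2 between the AMI days. Upstream genes were 12 to 19 and 1 to 5, 18 to 23 and 8 to 12, and 3 to 7 and 5 to 7. Target genes were 20 to 23 and 1 to 2, 16 to 20 and 2 to 5, and 4 to 6 and 10 to 14. The single hearts that decide members' calls are named beside those calls.

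Hearts that share a replicate number came from separate mice, and the labels give no pairing by number. Deviations of same-numbered hearts correlated between -0.244 and 0.229, with 4 of 12 pairs over 0.1. Those of replicate 3 were 0.122, 0.127 and 0.149. Pairs with unlike numbers were not set beside these, and whether same-numbered hearts shared a processing step was not tested. With the replicate block, *Rela* on day 1 was 0.35 (FDR = 0.0506), *Nfkb2* on day 7 was 0.29 (FDR = 0.0536), and *Nfkbie* between the AMI days was 0.52 (FDR = 0.0755), so these 3 calls were lost, and target genes lower on day 1 were 1.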
